A study of Mus musculus with 8 samples.

Results

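Wild-type mouse macrophages were compared after 2 days with tumour necrosis factor (TNF) and before it, in 4 of the 8 libraries of the series. These were bone marrow-derived macrophages (BMMs), which are grown in culture from marrow precursors. The wild-type control cells gave 2 libraries at day 0, with no TNF, and 2 libraries after TNF at 40 ng/ml for 2 days. The libraries were chosen by genotype and time alone, and were paired by replicate number. The other 4 libraries came from BMMs of Rbpj f/f;LysMCre mice, in which Cre made from the lysozyme M gene deletes Rbpj in myeloid cells, at the same times and with the same TNF dose. These knockout libraries counted in choosing which genes were tested, and entered the fit for its estimate of spread. Their own values are given only where the genotypes are compared. The strain and age of the mice, and any Cre or floxed allele of the wild-type control, are not given in the sources used. Cells cultured for 2 days in the absence of TNF were not among the groups, so every difference below holds the effect of time in culture as well as that of TNF, and the 2 cannot be told apart. The series speaks of 2 independent experiments, and nothing ties the replicates of a group to different mice. The p-values therefore rest on the scatter among these libraries, and that scatter may be technical.

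TNF is a cytokine made mainly by activated macrophages. Binding to its receptors recruits TRAF adaptors, cIAP ubiquitin ligases and the kinase RIPK1, and activates the IkB kinases, which release NF-kB dimers from their IkB inhibitors. NF-kB then induces genes for cytokines, chemokines and adhesion molecules, together with IkB and A20, which shut the pathway off. Macrophages and osteoclasts, the cells that resorb bone, arise from the same precursors, and TNF is known to act on osteoclast formation. Rbpj encodes RBP-J, a DNA-binding protein of the Notch pathway and a known restraint on osteoclast formation in response to TNF.

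The wild-type libraries held from 23581922 to 35653203 reads counted in genes. Levels are given as CPM, the reads of a gene scaled to a common library total, and differences as log2(CPM + 0.5) after TNF minus day 0, with the standard error of the fit, so that a difference of 1 is a doubling. Such differences understate the change of genes with few reads. Pairs of CPM values list replicate 1 and then replicate 2. A gene was called, and is said to have risen or fallen, at an adjusted p under 0.05 from limma with replicate as a block. Adgre1 (F4/80) and Csf1r (the M-CSF receptor), which define macrophages, were present in every library, at 721 and 1840 CPM and at 1785 and 2249 CPM at day 0. Neither was called, with adjusted p = 0.9 for Adgre1 and adjusted p = 0.207 for Csf1r. Of 8 macrophage markers 1 rose and 1 fell, with a median of 0.21 and 4 members on each side of 0. Fcgr1, which fell, is described below. Lyz2, which rose, had 7.65 and 30.3 CPM and then 26.6 and 102 CPM (1.73 ± 0.33, adjusted p = 0.0269), with overlapping groups, and shares near-identical sequence with Lyz1, which makes its count uncertain. The call of Lyz2 ended with no block (0.526), with no filter (0.0532), without day 0 replicate 1 (0.0929), without day 0 replicate 2 (0.073), without TNF replicate 1 (0.0527) and without TNF replicate 2 (0.201). Without any 1 of the wild-type libraries the list had 0 higher and 1 lower, and with no block it had 0 of either. Fewer cells of a type and less RNA per cell cannot be told apart in bulk samples such as these.

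After TNF, 676 of 12194 genes tested had risen (5.54%) and 574 had fallen (4.71%), or 10.3% in either direction. Counts of members called in each gene list are to be read against these shares. The lists were chosen with earlier results of these data known. A count above these shares is therefore a description and not a test of enrichment. The rises were the larger: the median difference was 1.94 among genes that rose and −1.36 among those that fell, against −0.12 over all genes. More than 8-fold changes numbered 161 among the rises and 46 among the falls. Genes that rose took 3.29% and 3.30% of the reads at day 0 and 11.1% and 16.6% after TNF, while genes that fell went from 8.86% and 9.47% to 3.69% and 2.96%. The median over all genes was 0.00062 with median-ratio scaling, which centres it by construction, and −0.06 with quantile scaling, so differences are to be read against a shift of −0.12. Replicate mattered to the count: with no replicate block 99 genes rose (0.812%) and 45 fell (0.369%), all of them among the paired calls. Fits that left out 1 library called from 169 to 724 genes higher and from 67 to 653 lower. The counts fell by more than 1.5 times without day 0 replicate 2 (169 and 81) and without TNF replicate 2 (182 and 67). Without TNF replicate 1 both counts also fell by more than 1.5 times, though less far. Without either knockout day 0 library only the lower count fell by more than 1.5 times.

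The pair differences of the 2 replicates were alike in direction for large changes. Across genes their Pearson correlation was 0.758 and their Spearman correlation 0.665 (12194 genes, which are not independent replicates). In both replicates 663 genes were over 2-fold higher and 409 were over 2-fold lower, and 22 genes were over 2-fold in opposite directions. Replicate 2 had the larger number past 2-fold, with 1140 higher and 1488 lower, against 928 and 605 in replicate 1. Called or not, 1809 genes had both TNF libraries above both day 0 libraries (14.8%), and 2755 had both below (22.6%). A lack of overlap between the groups was thus common and is given below as a description only. A called gene whose values are given below was called in every one of the 10 alternative fits and 8 fits without 1 library, unless the fits that ended its call are given in the same paragraph. Of 182 called genes that were followed in this way, 40 met this.

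**Figure D1:**
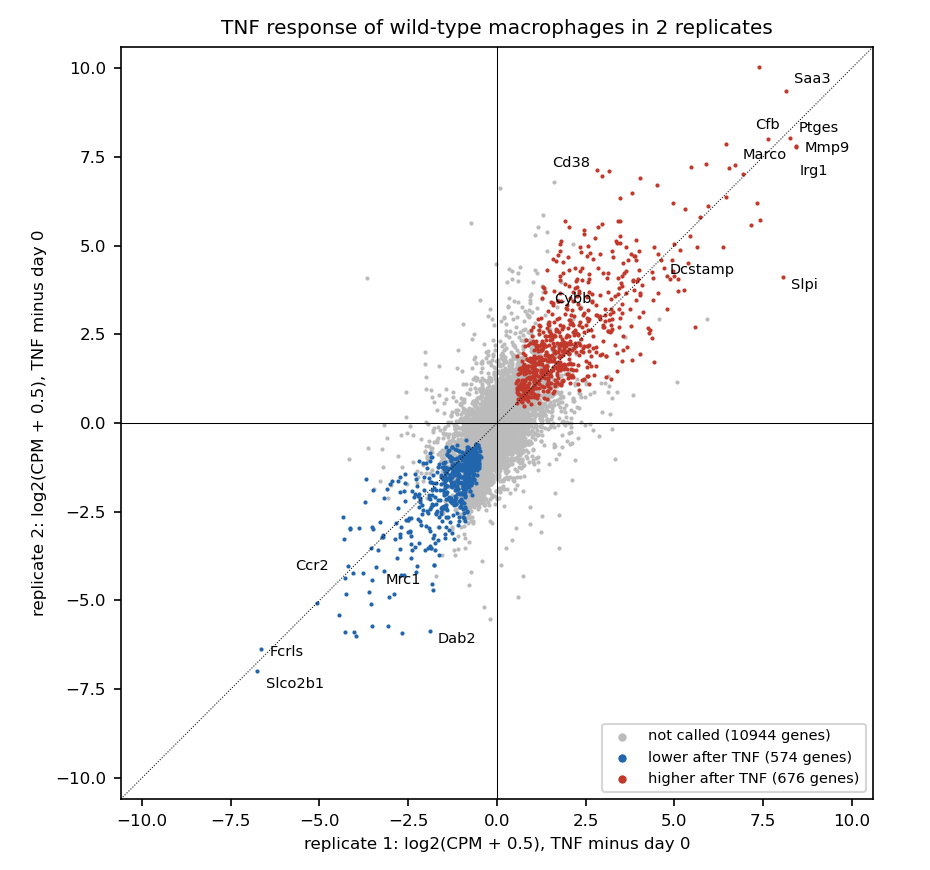
Difference in log2(CPM + 0.5), TNF minus day 0, in wild-type macrophages, with replicate 1 on the x axis and replicate 2 on the y axis, 1 point per gene (12194 genes) and a dotted line of equality. Called genes are coloured by direction (676 higher, 574 lower); Slco2b1 and Fcrls lie near the line, and Dab2, Cd38 and Slpi lie away from it.

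The largest increases included genes of acute-phase proteins, prostaglandin and itaconate synthesis, matrix breakdown and cystine uptake. Mmp9 (ENSMUSG00000017737.2, GRCm38 chromosome 2, 164940780 to 164955850, protein coding) encodes the gelatinase MMP9, which osteoclasts and inflammatory macrophages secrete. Its level was 13.2 and 11.8 CPM before TNF and 4718 and 2777 CPM after it, a difference of 8.12 ± 0.30 (adjusted p = 0.00046). Ptges, the inducible prostaglandin E synthase, went from 2.11 and 2.11 CPM to 801 and 682 CPM, a difference of 8.14 ± 0.56 (adjusted p = 0.00147). For both genes the libraries of a group lay close together and the groups were far apart. Saa3, an acute-phase serum amyloid A that macrophages make, rose from 1.09 and 2.63 CPM to 450 and 2051 CPM (8.75 ± 0.69, adjusted p = 0.00199), with replicate 2 the higher at both times. Irg1 (Acod1 in GENCODE) encodes the enzyme that makes itaconate from a citric acid cycle intermediate. Its level rose from 2.73 and 5.53 CPM to 1112 and 1314 CPM (8.10 ± 0.43, adjusted p = 0.00093). Slc7a11, the cystine importer that feeds glutathione synthesis, rose from 4.85 and 5.79 CPM to 469 and 1475 CPM (7.17 ± 0.35, adjusted p = 0.00086). Clec4e, which encodes Mincle, a receptor for microbial glycolipids and dead cells, rose from 45.2 and 53.0 CPM to 2742 and 8506 CPM (6.61 ± 0.38, adjusted p = 0.00126). In each of these genes the lowest TNF library was far above the highest day 0 library.

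H2-M2, a non-classical MHC class I gene, rose from 0.146 and 2.11 CPM to 109 and 2759 CPM (8.72 ± 0.56, adjusted p = 0.00144). The replicates lay far apart at each time, and without the replicate block its adjusted p was 0.107. Adgre4, an adhesion receptor of the F4/80 family, stood at 0.401 and 1.71 CPM and then at 111 and 284 CPM (6.98 ± 0.79, adjusted p = 0.00527, and 0.0753 with no block). Among called genes, the largest gain in share of all reads was that of Cybb, the catalytic subunit of the phagocyte NADPH oxidase. Cybb rose from 556 and 1150 CPM to 4210 and 9366 CPM (2.97 ± 0.25, adjusted p = 0.00211, and 0.127 with no block), with no overlap between the groups. Acsl1, a long-chain acyl-CoA synthetase, went from 74.2 and 83.4 CPM to 714 and 2408 CPM (4.05 ± 0.36, adjusted p = 0.00246).

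The 12 largest decreases were of mixed kinds: Slco2b1, Fcrls, Ccr2, Ccl7, Cbr2, Hpgd, Ctnnd2, F13a1, Id1 and the neutrophil granule genes Ltf, Mpo and Ngp. Slco2b1, an organic anion transporter, fell from 123 and 69.1 CPM to 0.645 and 0.0424 CPM (−6.88 ± 0.45, adjusted p = 0.00144), which is 24 reads in both TNF libraries together against 5243 at day 0. Fcrls (ENSMUSG00000015852.13, chromosome 3, 87250758 to 87263738, protein coding), a scavenger-like receptor of the Fc receptor-like family, fell from 315 and 288 CPM to 2.64 and 2.97 CPM (−6.52 ± 0.25, adjusted p = 0.00046). Both TNF libraries were far below both day 0 libraries in each gene. Cbr2, a carbonyl reductase, fell from 79.9 and 52.2 CPM to 1.91 and 1.06 CPM (−5.07 ± 0.25, adjusted p = 0.00086). Lgmn, a lysosomal cysteine protease, fell from 1413 and 1851 CPM to 287 and 460 CPM (−2.15 ± 0.22, adjusted p = 0.004) and was among the largest losses in share of reads. Ctnnd2, a delta-catenin, fell from 19.0 and 20.8 CPM to 0.533 and 0.254 CPM (−4.53 ± 0.31, adjusted p = 0.00147). The calls of 6 of the 12 ended in some fits. That of Hpgd ended with no block (0.0794), without TNF replicate 1 (0.063) and without TNF replicate 2 (0.114), and that of F13a1 with no block (0.141) and without day 0 replicate 2 (0.0725). That of Ltf ended with no block (0.0799) and without TNF replicate 2 (0.0529), and that of Mpo with no block (0.0503), without day 0 replicate 2 (0.113), without TNF replicate 1 (0.0527) and without TNF replicate 2 (0.129). Those of Ccl7 and Ngp are given with their lists.

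**Figure D2:**
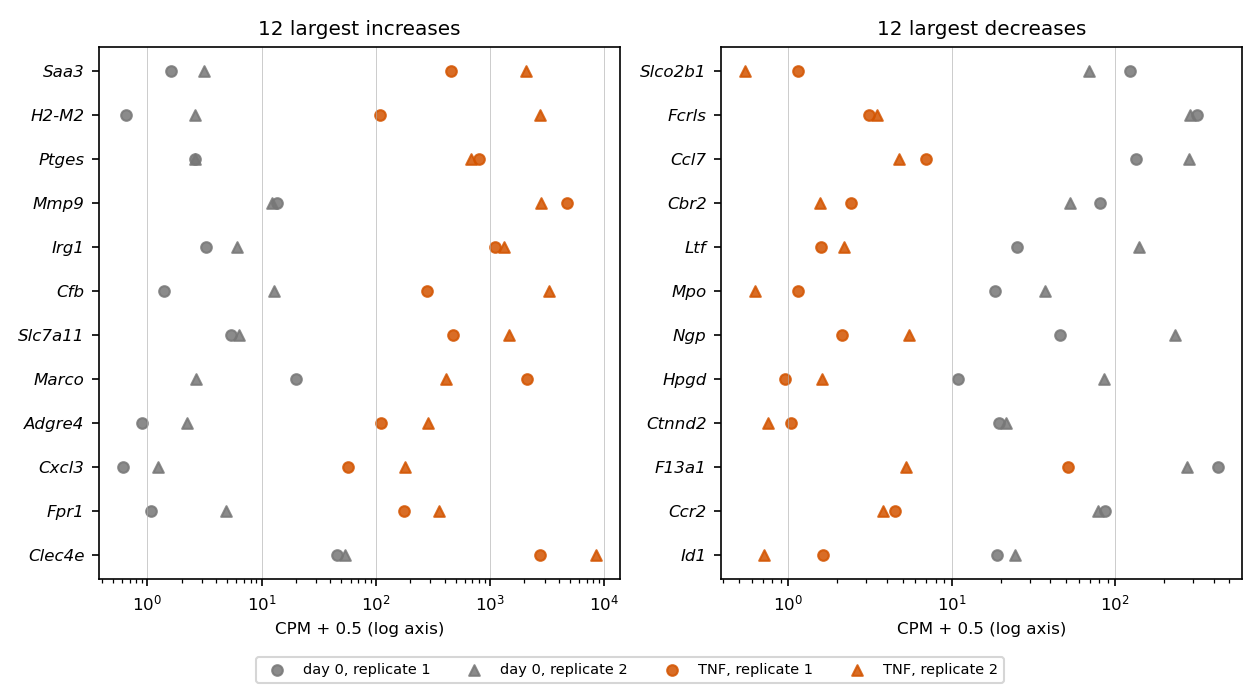
CPM + 0.5 on a log axis in each of the 4 wild-type libraries for the 12 largest increases and the 12 largest decreases, with grey for day 0, orange for TNF, circles for replicate 1 and triangles for replicate 2. In every gene shown both TNF libraries lie on the same side of both day 0 libraries, and H2-M2 and Cfb have replicates far apart.

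Adaptors, ligases and kinases below the TNF receptors rose, while the main receptor and RIPK1 were not called. Among 25 receptor, adaptor and kinase genes 9 rose and 0 fell, with a median of 0.29. Tnfrsf1a, the receptor TNFR1, stood at 212 and 181 CPM at day 0 and at 197 and 127 CPM after TNF (−0.31 ± 0.16, adjusted p = 0.249). Ripk1 went from 152 and 173 CPM to 127 and 119 CPM (−0.39 ± 0.16, adjusted p = 0.169). The inducible receptor TNFR2 gave another picture. Tnfrsf1b rose from 305 and 312 CPM to 815 and 1999 CPM (2.05 ± 0.33, adjusted p = 0.0155). Ikbke, a kinase related to the IkB kinases, rose from 74.9 and 66.2 CPM to 317 and 330 CPM (2.19 ± 0.14, adjusted p = 0.00144). Birc3, which encodes the ligase cIAP2, rose from 22.3 and 33.9 CPM to 166 and 270 CPM (2.92 ± 0.23, adjusted p = 0.00203, and 0.0552 with no block). Traf1, an adaptor that NF-kB induces, went from 4.05 and 5.49 CPM to 95.4 and 102 CPM (4.25 ± 0.54, adjusted p = 0.00741). The call of Tnfrsf1b ended without day 0 replicate 2 (adjusted p = 0.12), without TNF replicate 2 (0.0791) and with no block (0.107), and that of Traf1 without the same 2 libraries (0.0621 and 0.0537). The list's 9 calls became 2 without day 0 replicate 2, 4 without TNF replicate 2, 5 without day 0 replicate 1, 6 without TNF replicate 1 or a knockout day 0 library, and 3 with no block.

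Some inhibitors of NF-kB and the subunits of its non-canonical dimer rose. Among 20 genes of this list 10 rose, 0 fell and 10 were not called, with a median of 1.21. The genes that rose include Icam1 and Tnfaip2, which are neither subunits nor inhibitors of NF-kB. Nfkbie and Nfkbia encode the inhibitors IkB epsilon and IkB alpha. Nfkbie stood at 9.11 and 12.4 CPM at day 0 and at 157 and 157 CPM after TNF (3.82 ± 0.28, adjusted p = 0.00147). Nfkbia (ENSMUSG00000021025.8, chromosome 12, 55489410 to 55492647, protein coding) rose from 46.3 and 44.2 CPM to 376 and 221 CPM (2.66 ± 0.23, adjusted p = 0.00235). Relb and Nfkb2 encode the subunits of the non-canonical dimer. Relb rose from 12.1 and 10.5 CPM to 102 and 71.7 CPM (2.86 ± 0.22, adjusted p = 0.00196). Nfkb2 rose from 51.3 and 36.5 CPM to 270 and 191 CPM (2.38 ± 0.15, adjusted p = 0.00144). The canonical subunits were not called: Nfkb1 had 147 and 140 CPM and then 216 and 167 CPM (0.41 ± 0.19, adjusted p = 0.216), and Rela had 112 and 70.2 CPM and then 147 and 94.0 CPM (0.41 ± 0.15, adjusted p = 0.137). Tnip1, which binds A20, rose from 61.8 and 39.4 CPM to 343 and 234 CPM (2.51 ± 0.23, adjusted p = 0.00272). Icam1, the adhesion ligand of leukocyte integrins, rose from 56.4 and 57.1 CPM to 398 and 478 CPM (2.93 ± 0.17, adjusted p = 0.00126). Of the 10 calls, 6 were made in every fit, and the list had 7 calls without TNF replicate 2 and 6 with no block.

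Promoters of these genes are shown because members of the list moved together and NF-kB is known to bind the kB motif. Promoter sequences were RefSeq's for GRCm38.p6, with 1 start site per gene, and matched 9359 of the 12194 genes. The kB consensus was searched on both strands in the 250 bases before the start, and overlapping matches were merged in the capitals. It was present in 7.01% of all 27025 promoters, in 13.3% of 520 promoters of genes that rose, in 9.26% of 421 of genes that fell and in 8.36% of 8418 of genes not called. Among 13 promoters of the 14 NF-kB and chemokine genes that rose, 9 held a match. Members of these lists that did not rise were not counted, and the lists were chosen with earlier results known. The 9 of 13 is therefore a description and cannot tie the motif to the TNF response. The 4 of these genes with the highest CPM after TNF are printed from 5′ to 3′ along the gene's strand, 100 bases each, with the match in capitals, at chr12:111442561-111442660 (+) for Tnfaip2, chr12:55492648-55492747 (−) for Nfkbia, chr11:54962942-54963041 (−) for Tnip1 and chr19:46304637-46304736 (+) for Nfkb2. A match is only a run of letters and was not tested as a bound site.
Tnfaip2: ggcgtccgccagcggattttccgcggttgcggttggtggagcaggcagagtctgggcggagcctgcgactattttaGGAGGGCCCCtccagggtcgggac
Nfkbia: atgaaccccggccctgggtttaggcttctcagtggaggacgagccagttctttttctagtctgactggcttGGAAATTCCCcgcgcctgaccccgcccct
Tnip1: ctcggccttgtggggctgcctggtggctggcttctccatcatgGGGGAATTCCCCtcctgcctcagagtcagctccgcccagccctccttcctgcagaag
Nfkb2: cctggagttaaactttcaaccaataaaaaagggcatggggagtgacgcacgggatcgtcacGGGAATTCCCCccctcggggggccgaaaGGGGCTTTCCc

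The match nearest the start spanned bases 15 to 24 before the start in Tnfaip2, 20 to 29 in Nfkbia, 47 to 56 in Tnip1 and 2 to 11 in Nfkb2. The Tnip1 window ends at the second base before the start, and the other windows at the first. Tnfaip2, a gene first found as TNF-induced in endothelium, rose from 211 and 177 CPM to 675 and 1120 CPM (2.17 ± 0.30, adjusted p = 0.00953). Its call ended without TNF replicate 2 (adjusted p = 0.0968) and with no block (0.0909). The AP-1 site TGACTCA, searched in the same windows and on both strands, was in 4.43% of all promoters, in 5.77% of those of genes that rose, in 4.04% of those of genes that fell and in 2.96% of those of genes not called. Among genes that rose, it was in 12 of 122 promoters of those over 8-fold higher (9.84%). It was in 2 of 62 of those under 2-fold higher (3.23%), and the difference was not tested. The kB consensus was in 13.9% and 14.5% of the same promoters.

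Of 19 chemokine ligand genes 4 rose and 4 fell, with a median of 0.24. The genes that rose were Cxcl1, Cxcl2, Cxcl3 and Ccl22, and those that fell were Ccl2, Ccl4, Ccl7 and Ccl12. Cxcl3, a ligand of the neutrophil receptor CXCR2, rose from 0.109 and 0.742 CPM to 56.8 and 180 CPM (6.87 ± 0.65, adjusted p = 0.00297). Cxcl2, a ligand of the same receptor, rose from 1.38 and 3.12 CPM to 55.2 and 59.6 CPM (4.47 ± 0.49, adjusted p = 0.00454). The ligands of CCR2, the receptor that brings monocytes out of marrow, moved the other way. Ccl2 fell from 348 and 478 CPM to 46.5 and 16.6 CPM (−3.85 ± 0.66, adjusted p = 0.0184), and Ccl7 fell from 133 and 281 CPM to 6.42 and 4.28 CPM (−5.08 ± 0.82, adjusted p = 0.0158). In neither gene did the groups overlap. The calls of Ccl2 and Ccl7 ended without day 0 replicate 2 (adjusted p = 0.0544 and 0.083), without TNF replicate 1 (0.0807 and 0.0803), without TNF replicate 2 (0.141 and 0.113) and with no block (0.161 and 0.0695). The call of Cxcl1 ended without day 0 replicate 1 (0.0932) or 2 (0.0733), without TNF replicate 1 (0.0933), with no filter (0.0525) and with no block (0.092). That of Ccl22 ended without TNF replicate 2 (0.0968) and with no block (0.168), and that of Ccl4 without day 0 replicate 2 (0.067) and with no block (0.128). That of Ccl12 ended without day 0 replicate 2 (0.103), TNF replicate 1 (0.0872), TNF replicate 2 (0.208) or either knockout day 0 library (0.0522 and 0.0523), with no filter (0.0636) and with no block (0.102). The list had 0 genes lower without day 0 replicate 2, 1 without either TNF library, and 2 higher and 0 lower with no block.

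Ccr2 itself fell from 86.6 and 78.5 CPM to 4.01 and 3.31 CPM (−4.32 ± 0.34, adjusted p = 0.002), so the receptor and its ligand genes were both lower. Of 16 chemoattractant receptor genes 3 rose and 5 fell, with a median of −0.72. Fpr2, a receptor for formylated and serum amyloid peptides, rose from 0.620 and 5.86 CPM to 98.7 and 531 CPM (6.43 ± 0.40, adjusted p = 0.00144, and 0.111 with no block). The closely related Fpr1 stood at 0.583 and 4.41 CPM and then at 175 and 358 CPM (6.76 ± 0.99, adjusted p = 0.0115). Replicate 2 was the higher at both times for both formyl peptide receptors. The call of Fpr1 ended without day 0 replicate 2 (adjusted p = 0.0692), without TNF replicate 1 (0.0686) or 2 (0.0907) and with no block (0.0791). Calls in this list fell to 1 higher and 1 lower without day 0 replicate 2 or without TNF replicate 2. They numbered 3 higher and 2 lower without TNF replicate 1, 5 and 5 without day 0 replicate 1, 2 and 3 when either knockout day 0 library was left out, 2 and 3 with edgeR, and 0 and 1 with no block.

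Few cytokine genes were at a high level, and TNF's own gene rose. Of 19 cytokine genes 5 rose and 0 fell, with a median of 0.88. Tnf stood at 18.4 and 28.4 CPM at day 0 and at 38.2 and 93.0 CPM after TNF (1.37 ± 0.23, adjusted p = 0.0182), with no overlap. Lif, a cytokine of the IL-6 family, rose from 0.364 and 0.0371 CPM to 6.62 and 3.94 CPM (3.05 ± 0.31, adjusted p = 0.00402, and 0.0689 with no block), from 11 reads at day 0 and 329 after TNF. Il1b, an early inflammatory cytokine, was at 0.109 and 0.705 CPM and then at 1.07 and 4.92 CPM (1.77 ± 0.55, adjusted p = 0.092). Il10, an anti-inflammatory cytokine, had 1.42 and 5.68 CPM and then 1.6 and 1.23 CPM (adjusted p = 0.596). The call of Tnf ended without day 0 replicate 2 (adjusted p = 0.131), without TNF replicate 2 (0.106) and with no block (0.323), and without either of these libraries the list had 1 call. It had 3 calls with no filter and 0 with no block.

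Among 23 cytokine receptor genes 3 rose and 3 fell. Csf2rb, the shared signalling chain of the GM-CSF, IL-3 and IL-5 receptors, rose from 110 and 105 CPM to 582 and 690 CPM (2.55 ± 0.22, adjusted p = 0.00235). Il6ra, the IL-6 binding chain, fell from 84.7 and 87.9 CPM to 45.2 and 39.9 CPM (−1.01 ± 0.15, adjusted p = 0.0132). The call of Il6ra ended without day 0 replicate 2 (0.0972), without TNF replicate 2 (0.109) and with no block (0.102). Csf1r had 2706 and 3164 CPM after TNF (0.55 ± 0.25). Tnfrsf11a, which encodes RANK, the receptor for the osteoclast cytokine RANKL, had 89.1 and 214 CPM and then 99.7 and 68.2 CPM (−0.74 ± 0.39, adjusted p = 0.266), with overlapping groups. Calls in this list were 1 higher and 0 lower without day 0 replicate 2, without TNF replicate 2 and with no block. They were 2 and 1 without day 0 replicate 1, 1 and 2 without TNF replicate 1, and 3 and 2 without either knockout day 0 library.

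Of 18 acute-phase and complement genes 8 rose and 4 fell, with a median of 1.5. C3, the central complement protein, rose from 20.4 and 40.2 CPM to 1305 and 2813 CPM (6.04 ± 0.49, adjusted p = 0.00203). Cfb, the protease of the alternative pathway that acts with C3, rose from 0.911 and 12.4 CPM to 281 and 3308 CPM (7.82 ± 0.82, adjusted p = 0.00422, and 0.228 with no block), and replicate 2 was over 10 times replicate 1 at each time. Hp, which encodes the haemoglobin-binding protein haptoglobin, rose from 2.11 and 6.05 CPM to 375 and 315 CPM (6.38 ± 0.56, adjusted p = 0.00235). The 3 genes of C1q, which starts the classical pathway and also coats dying cells, all fell. C1qb stood at 1644 and 1262 CPM and then at 652 and 181 CPM (−2.07 ± 0.40, adjusted p = 0.0267). The calls of C1qa and C1qc ended without day 0 replicate 2 (adjusted p = 0.225 and 0.122), without TNF replicate 2 (0.214 and 0.133) and with no block (0.251 and 0.228), and that of C1qa with no filter (0.0667). The call of C1qb ended without day 0 replicate 2 (adjusted p = 0.183), without TNF replicate 2 (0.168), with no filter on low values (0.0567) and with no block (0.267). No gene of the list was called lower without either of those libraries, and 6 were then called higher. With no filter 7 were higher and 2 lower, and with no block 4 and 0.

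Of 18 eicosanoid genes 2 rose and 4 fell, with a median of −0.13. Beside the rise of Ptges, Hpgds, the haematopoietic prostaglandin D synthase, fell from 225 and 299 CPM to 33.7 and 25.0 CPM (−3.14 ± 0.30, adjusted p = 0.00288). Ptgs2, the inducible cyclooxygenase, was not called (1.20 and 1.11 CPM and then 1.57 and 24.7 CPM, adjusted p = 0.165) and is named although it lies outside the rule for named genes. Pla2g7, which breaks down platelet-activating factor, rose from 97.8 and 455 CPM to 1143 and 3896 CPM (3.32 ± 0.29, adjusted p = 0.00235, and 0.323 with no block). The list had 2 genes lower without TNF replicate 2, 4 higher and 3 lower without TNF replicate 1, and 1 and 2 with no block.

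Of 27 genes of the NRF2 and glutathione group 12 rose and 0 fell, with a median of 0.97. NRF2 is a transcription factor that is stabilised under oxidative or electrophilic stress. Sod2, the mitochondrial superoxide dismutase, rose from 74.3 and 79.2 CPM to 893 and 1490 CPM (3.90 ± 0.21, adjusted p = 0.00093). Gsta3, a glutathione transferase, rose from 10.9 and 3.23 CPM to 172 and 133 CPM (4.54 ± 0.32, adjusted p = 0.00147, and 0.0552 with no block). Gsr, which recycles oxidised glutathione, rose from 156 and 90.4 CPM to 506 and 437 CPM (1.98 ± 0.21, adjusted p = 0.00445, and 0.126 with no block). The groups were well apart for all 3 genes. Nqo1, a standard NRF2 target, went from 10.4 and 14 CPM to 76.0 and 145 CPM (3.07 ± 0.48, adjusted p = 0.0144). Its call ended without day 0 replicate 1 (adjusted p = 0.0574) or 2 (0.073), without TNF replicate 2 (0.114) and with no block (0.0526). The list had 4 calls without TNF replicate 2, 5 without day 0 replicate 2, 6 without day 0 replicate 1, 6 with no filter on low values and 2 with no block. The antioxidant response element core, TGACNNNGC on either strand, was in 10.1% of all promoters and in 11.9% of those of genes that rose. It was in 13.3% of those of genes that fell and in 12.4% of those of genes not called. Among genes that rose, it was in 15.6% of 122 promoters of those over 8-fold higher and in 11.3% of 62 of those under 2-fold higher. Of the NRF2 members that rose, 3 of 10 promoters held it, and members that did not rise were not counted.

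Of 11 genes of itaconate, nitric oxide and arginine metabolism 5 rose and 0 fell, with a median of 1.25. Nos2, the inducible nitric oxide synthase, had 2 reads at day 0 and 426 after TNF, which is 0 and 0.0742 CPM and then 1.23 and 16.2 CPM. Its difference was 3.33 ± 0.76 (adjusted p = 0.0439), and the call ended in 7 of the 8 fits without 1 library, with adjusted p from 0.0521 to 0.27. Without day 0 replicate 1, day 0 replicate 2 or TNF replicate 2 its adjusted p was 0.0701, 0.27 and 0.129, and without each knockout library in turn it was 0.0636, 0.0642, 0.0521 and 0.0527. It also ended with a pseudocount of 1 (0.067), with no filter (0.0743), with median-ratio (0.0613) or quantile scaling (0.064) and with no block (0.219). Arg1, the arginase that competes with it, was not called (18.8 and 8.24 CPM and then 65.2 and 0.254 CPM, adjusted p = 0.655), with TNF libraries on both sides of day 0. The list had 1 call without day 0 replicate 2, without TNF replicate 2 and with no block, 3 without TNF replicate 1 or either knockout day 0 library, and 2 with no filter.

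Metallothionein and iron genes moved in both directions. Of 20 genes 5 rose and 4 fell, with a median of 0.54. Mt3, a metallothionein, rose from 0.182 and 0 CPM to 7.26 and 7.21 CPM (3.73 ± 0.39, adjusted p = 0.00415), from 5 reads to 429. Fth1, the heavy chain of the iron store ferritin, had 10704 and 5203 CPM and then 18009 and 15247 CPM (1.15 ± 0.37, adjusted p = 0.0983). Slc40a1, the iron exporter ferroportin, fell from 282 and 550 CPM to 34.2 and 167 CPM (−2.37 ± 0.39, adjusted p = 0.0167). The call of Slc40a1 ended without day 0 replicate 1 (adjusted p = 0.0621) or 2 (0.0923) and with no block (0.262). The list had 1 call higher and 0 lower without day 0 replicate 2, 2 and 1 without TNF replicate 2, 3 and 4 without day 0 replicate 1, 3 and 3 without TNF replicate 1, 2 and 4 with no filter, and 1 and 0 with no block.

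A list of transporters, mostly of sugars and amino acids, had calls in both directions. Of 21 genes 5 rose and 2 fell. Those that fell were Slc2a3 and the iron exporter Slc40a1, which the iron list above also counts. Slc2a3 was thus the only sugar or amino acid transporter of the list that fell. Slc6a12, a betaine and GABA transporter, rose from 0.182 and 0.297 CPM to 29.9 and 119 CPM (6.35 ± 0.43, adjusted p = 0.00147). Slc2a3, the high-affinity glucose transporter GLUT3, fell from 33.5 and 27.3 CPM to 4.77 and 3.14 CPM (−2.81 ± 0.23, adjusted p = 0.00211). Without day 0 replicate 2 the list had 1 call in each direction, without TNF replicate 2 it had 2 in each, without TNF replicate 1 it had 4 and 3, and with no block it had 2 and 1.

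Most of the listed genes for the function and fusion of osteoclasts rose. Of 25 effector and fusion genes 15 rose, 0 fell and 10 were not called, with a median of 2.04. Of the 15, 8 rose in every fit. Acp5 encodes the acid phosphatase TRAP, the classical stain for osteoclasts. It rose from 11.2 and 20.1 CPM to 973 and 638 CPM (5.67 ± 0.49, adjusted p = 0.00235). Dcstamp and Ocstamp are membrane proteins needed for precursors to fuse into multinucleated cells. Dcstamp rose from 0.838 and 1.26 CPM to 32.7 and 42.3 CPM (4.62 ± 0.20, adjusted p = 0.00061), and Ocstamp from 0.547 and 0.334 CPM to 28.6 and 14.4 CPM (4.48 ± 0.28, adjusted p = 0.00144). Src, a kinase needed for the ruffled border with which osteoclasts resorb bone, rose from 2.70 and 6.49 CPM to 139 and 272 CPM (5.37 ± 0.43, adjusted p = 0.00203). Ctsk, the protease that degrades bone collagen, rose from 5.50 and 30.0 CPM to 297 and 948 CPM (5.29 ± 0.46, adjusted p = 0.00235, and 0.0961 with no block). In all 5 genes both TNF libraries were far above both day 0 libraries. The list had 9 calls without day 0 replicate 2, 10 without TNF replicate 1 and 8 with no block. In a separate list of 28 lysosome and V-ATPase genes 0 rose and 1 fell, with a median of −0.15. With no block that list had 0 calls in either direction.

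Of 8 osteoclast markers 7 rose, and their summed level went from 44.6 and 89.6 CPM to 6280 and 4762 CPM. Calcr, the calcitonin receptor of mature osteoclasts, had 0 reads in both day 0 libraries and 1.09 and 1.36 CPM after TNF, which is 71 reads, and was not called (adjusted p = 0.262). At this depth 0 reads in day 0 allow up to 0.109 and 0.111 CPM, counting error only. With no block 5 of the markers were called.

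Of 22 osteoclast transcription factors, activators and repressors 3 rose and 3 fell, with a median of −0.06 that turned positive with another scaling. Id1 and Id3, which block basic helix-loop-helix factors and are known repressors of osteoclast formation, fell. Id1 went from 18.5 and 23.8 CPM to 1.1 and 0.212 CPM (−4.32 ± 0.38, adjusted p = 0.00235), and Id3 from 25.6 and 38.8 CPM to 1.63 and 0.933 CPM (−4.20 ± 0.34, adjusted p = 0.00203). Maf, a factor of mature macrophages, fell from 457 and 724 CPM to 127 and 139 CPM (−2.11 ± 0.17, adjusted p = 0.00207). Prdm1, which encodes BLIMP1, a repressor of such inhibitory factors, rose from 10.7 and 15.6 CPM to 54.9 and 76.4 CPM (2.28 ± 0.20, adjusted p = 0.00235, and 0.0995 with no block). Ppargc1b, a coactivator of mitochondrial growth in osteoclasts, rose from 6.12 and 2.08 CPM to 30.6 and 14.5 CPM (2.39 ± 0.24, adjusted p = 0.004, and 0.231 with no block). Nfatc1, the master factor of osteoclast formation, had 83.4 and 67.2 CPM and then 279 and 144 CPM (1.41 ± 0.35). Its adjusted p of 0.0517 missed the threshold. Its groups did not overlap, which was so, with TNF the higher, in 14.8% of all genes. Irf8, a restraint on Nfatc1, had 218 and 115 CPM and then 160 and 102 CPM (adjusted p = 0.246). Without either knockout TNF library the list had 5 calls in each direction, without day 0 replicate 2 it had 2 higher and 3 lower, with quantile scaling 5 and 4, and with no block 1 higher.

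Other proteases of the matrix changed in both directions. Of 27 protease and inhibitor genes 6 rose and 3 fell, with a median of 0.02 that turned negative with another scaling. Mmp14, a membrane-bound collagenase, stood at 3.83 and 16.3 CPM and then at 734 and 896 CPM (6.57 ± 0.91, adjusted p = 0.00968). Plau, the urokinase plasminogen activator, fell from 1153 and 1597 CPM to 174 and 181 CPM (−2.93 ± 0.38, adjusted p = 0.00774). Neither gene had overlapping groups. The call of Mmp14 ended without day 0 replicate 2 (adjusted p = 0.071), without TNF replicate 1 (0.0536) and with no block (0.0925), and that of Plau without TNF replicate 1 (0.0509) or 2 (0.0537). The list had 2 higher and 1 lower without day 0 replicate 2, 5 and 1 without TNF replicate 1, 3 and 1 without TNF replicate 2, and 1 and 2 with no block.

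Genes that mark resident and tissue-type macrophages fell. Of 27 identity genes 11 fell and 1 rose, with a median of −1.63, and 6 fell in every fit. Mrc1 (ENSMUSG00000026712.3, chromosome 2, 14229392 to 14332057, protein coding), the mannose receptor CD206, fell from 1137 and 1457 CPM to 106 and 87.2 CPM (−3.74 ± 0.23, adjusted p = 0.00126). Gas6, the ligand that bridges dying cells to the receptors AXL and MERTK, fell from 1010 and 487 CPM to 89.0 and 60.7 CPM (−3.25 ± 0.30, adjusted p = 0.00282, and 0.0619 with no block). Apoe, which carries lipid out of macrophages, fell from 3103 and 1026 CPM to 236 and 221 CPM (−2.96 ± 0.38, adjusted p = 0.00741). For each of these genes the higher TNF library was under the lower day 0 library. The call of Apoe ended without TNF replicate 2 (adjusted p = 0.0508) and with no block (0.054). Marco, a scavenger receptor of alveolar and marginal zone macrophages, was the member that rose, from 19.6 and 2.15 CPM to 2093 and 409 CPM (6.99 ± 1.44, adjusted p = 0.0327), with replicate 1 the higher at both times. The call of Marco ended without day 0 replicate 2 (adjusted p = 0.214), TNF replicate 1 (0.147) or TNF replicate 2 (0.126), with no filter (0.0643), with edgeR (0.0665) and with no block (0.0961). With no block 6 members of the list fell.

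Genes for clearing dead cells fell alongside. Of 19 efferocytosis and bridging genes, which include Gas6 and the C1q genes, 9 fell and 0 rose, with a median of −1.44. This count leaned on 2 libraries, since 1 gene was called without day 0 replicate 2, 1 without TNF replicate 2 and 0 with no block. Calls were 6 without TNF replicate 1, and 5 with no filter on low values.

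The nuclear receptors of lipid metabolism moved in opposite directions. Pparg, which drives genes of lipid uptake and storage, fell from 29.6 and 36.1 CPM to 2.13 and 1.19 CPM (−3.98 ± 0.31, adjusted p = 0.00199). Nr1h3, which encodes the oxysterol receptor LXR alpha, rose from 4.19 and 15.2 CPM to 27.9 and 64.2 CPM (2.32 ± 0.29, adjusted p = 0.00701, and 0.358 with no block). Abca1, a cholesterol exporter that LXR induces, stood at 320 and 301 CPM and then at 734 and 1853 CPM (1.91 ± 0.35, adjusted p = 0.022). The call of Abca1 ended without day 0 replicate 2 (adjusted p = 0.157), without TNF replicate 2 (0.111) and with no block (0.133). Of 20 genes of this group 2 rose and 4 fell, with a median of −0.10 that turned positive with another scaling. Calls were 1 and 2 without day 0 replicate 2, 1 and 1 without TNF replicate 2, 3 and 3 without TNF replicate 1, and 0 and 1 with no block. Cholesterol synthesis genes had a median of −0.83, with 21 of 22 negative, and 1 of them, Fdft1, was called, against 10.3% of all genes. Its call ended with no block (0.227), with no filter (0.0573), without day 0 replicate 1 (0.0933), without day 0 replicate 2 (0.175), without TNF replicate 2 (0.157), without knockout day 0 replicate 1 (0.0527) and without knockout day 0 replicate 2 (0.0534). Without TNF replicate 1 or either knockout TNF library 5 were called, and without any of the other 5 libraries, or with no filter or no block, 0.

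Of 28 C-type lectin, Toll-like and other pattern receptor genes 7 rose and 3 fell, with a median of 0.43. Clec7a, the beta-glucan receptor dectin-1, went from 22.6 and 115 CPM to 101 and 1248 CPM (2.78 ± 0.32, adjusted p = 0.00532). Its groups overlapped and the call rests on the pairing, since the adjusted p was 0.597 with no block. Tlr2, the receptor for bacterial lipopeptides, rose from 64.6 and 149 CPM to 377 and 444 CPM (2.06 ± 0.28, adjusted p = 0.00938, and 0.168 with no block). Marco, Clec4e and Clec4n were also among the members that rose, and those that fell were Mrc1, Tlr4 and Tlr5. Tlr4, the receptor for bacterial lipopolysaccharide, fell from 144 and 318 CPM to 78.3 and 137 CPM (−1.04 ± 0.19, adjusted p = 0.0224), and Tlr5, the flagellin receptor, from 5.10 and 4.97 CPM to 1.01 and 0.170 CPM (−2.46 ± 0.46, adjusted p = 0.0236). The call of Tlr4 ended without day 0 replicate 2 (0.157), TNF replicate 1 (0.0869) or TNF replicate 2 (0.155) and with no block (0.531). That of Tlr5 ended without day 0 replicate 1 (0.0592) or 2 (0.172), without TNF replicate 2 (0.164), with edgeR (0.0502) and with no block (0.107). The call of Clec4n ended with no block (0.168) and without TNF replicate 2 (0.0506). Calls were 3 higher and 1 lower without TNF replicate 2, 5 and 1 without day 0 replicate 2, 6 and 2 without TNF replicate 1, 7 and 5 with a pseudocount of 0.1, and 1 and 1 with no block. Groups that overlap, as for Clec7a, were found in 87 of the 1250 called genes. Fcgr1, the high-affinity IgG receptor, fell from 149 and 331 CPM to 12.5 and 43.2 CPM (−3.23 ± 0.35, adjusted p = 0.00446, and 0.111 with no block).

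Purine and survival genes showed single large changes rather than a common direction. Of 18 purine receptor and ectonucleotidase genes 3 rose and 3 fell. Adora2a, the adenosine receptor that dampens macrophage activation, rose from 0.292 and 0.148 CPM to 8.36 and 24.6 CPM (4.38 ± 0.43, adjusted p = 0.00345). Entpd1, which encodes CD39, an enzyme that removes ATP, fell from 64.4 and 45.4 CPM to 3.03 and 2.33 CPM (−4.11 ± 0.52, adjusted p = 0.00741, and 0.0751 without TNF replicate 2). Of 23 BCL-2 family and survival genes 4 rose and 2 fell. Bcl2l1, which encodes the survival protein BCL-xL, fell from 241 and 163 CPM to 66.9 and 43.3 CPM (−1.87 ± 0.15, adjusted p = 0.00203, and 0.0946 with no block). Without TNF replicate 2 the purine list had 1 call higher and 0 lower, and without day 0 replicate 1, day 0 replicate 2 or TNF replicate 1 it had 2 and 2, 2 and 2, and 2 and 3. The survival list had 1 and 1 without day 0 replicate 2 or TNF replicate 2, 2 and 1 without day 0 replicate 1 or either knockout day 0 library, 3 and 1 without TNF replicate 1, 1 and 2 with no filter, 3 and 1 with edgeR, and 0 in all with no block. With no block the purine list had 1 and 2.

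**Figure D3:**
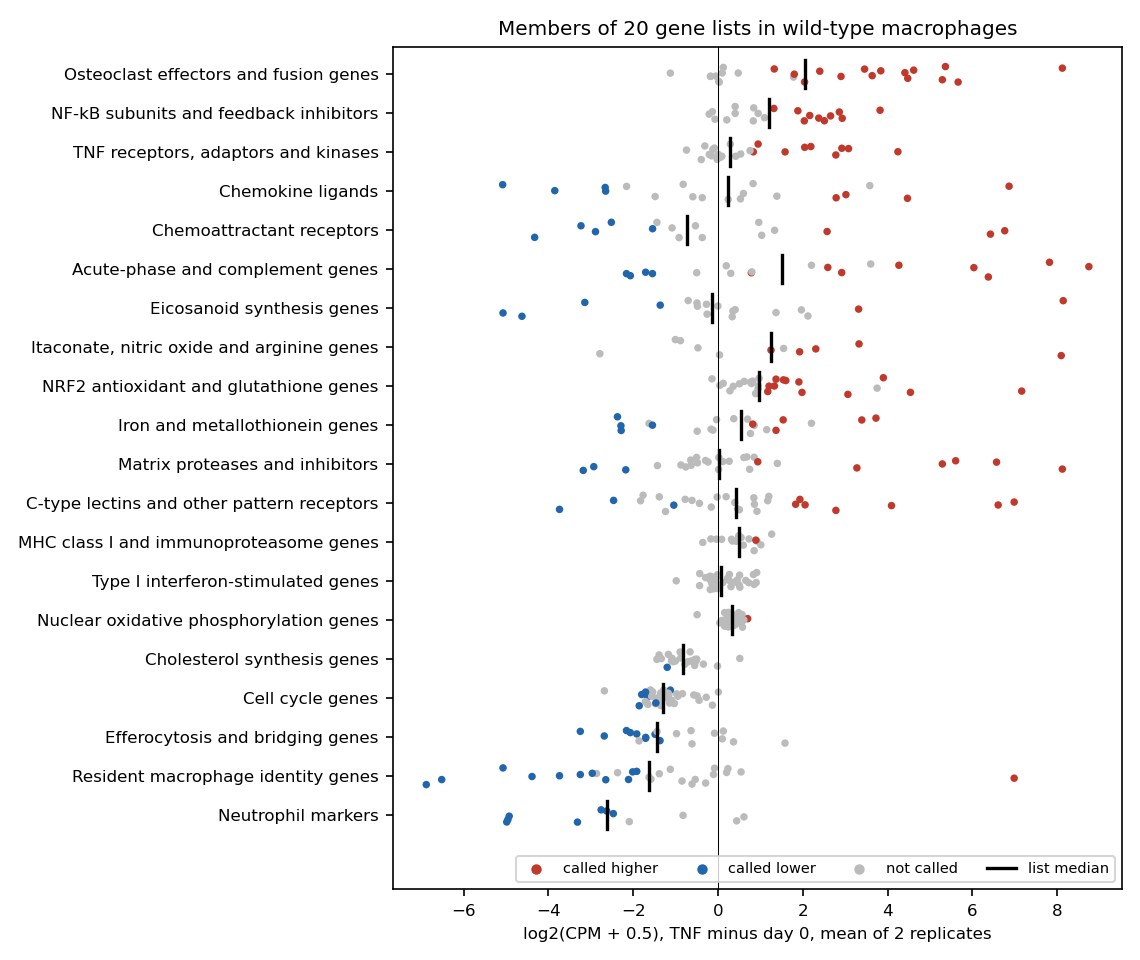
Difference in log2(CPM + 0.5), TNF minus day 0, of each tested member of 20 gene lists in wild-type macrophages, coloured by call, with a black bar at the list's median. The osteoclast effector median is at 2.04, that of the NF-kB list at 1.21 and that of resident macrophage genes at −1.63; lists share some members.

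Cell cycle genes lay below 0 almost throughout, but few passed the test. Of 40 genes 39 were negative and 6 fell, with a median of −1.29. Pcna, the sliding clamp of DNA replication, fell from 434 and 329 CPM to 151 and 88.3 CPM (−1.71 ± 0.20, adjusted p = 0.00571). Its call ended without TNF replicate 2 (adjusted p = 0.0571) and with no block (0.18). Mki67, a marker of dividing cells, had 765 and 770 CPM and then 490 and 244 CPM (−1.15 ± 0.39, adjusted p = 0.112). Its groups did not overlap, which was so, with TNF the lower, in 22.6% of all genes. The summed level of the list went from 7236 and 6736 CPM to 4660 and 1712 CPM, so the drop was larger in replicate 2. The count depended on single libraries: it was 25 without day 0 replicate 1, 12 and 10 without knockout TNF replicates 1 and 2, 3 without TNF replicate 1, 2 without either knockout day 0 library, 1 without day 0 replicate 2, and 0 without TNF replicate 2. It was also 4 with a pseudocount of 0.1, with median-ratio scaling and with edgeR, 1 with no filter, 24 with DESeq2, 26 in the wild-type libraries alone and 0 with no block.

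Of 32 type I interferon-stimulated genes 0 were called by limma, edgeR or DESeq2, and 0, 0 and 2 had an unadjusted p under 0.05. Their median was 0.06. Their summed level was 1201 and 5760 CPM at day 0 and 1247 and 8637 CPM after TNF, so replicate 2 was the higher at both times. Glycolysis and hypoxia genes were ordered the other way, with 10331 and 4200 CPM at day 0 and 12845 and 5091 CPM after TNF, replicate 1 being the higher. Of 23 glycolysis genes 4 rose and 1 fell, against 5.54% and 4.71% of all genes, with a median of 0.37. Of 34 nuclear genes of oxidative phosphorylation 33 were positive, with a median of 0.32, and 1 was called, against 10.3% of all genes. This was Sdhb, a subunit of succinate dehydrogenase, whose call ended with no block (0.278), in the wild-type libraries alone (0.0598), with no filter (0.0658), without day 0 replicate 1 (0.073), without day 0 replicate 2 (0.273), without TNF replicate 1 (0.168), without TNF replicate 2 (0.173), without knockout day 0 replicate 1 (0.0894) and without knockout day 0 replicate 2 (0.0901). Calls in the glycolysis list were 1 higher and 0 lower without day 0 replicate 2, 1 and 1 without TNF replicate 1, 2 and 1 with no filter, and 0 in all without TNF replicate 2 and with no block.

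Of 11 neutrophil markers 7 fell, with a median of −2.62 and a summed level of 183 and 896 CPM at day 0 and 116 and 219 CPM after TNF. Ngp, a granule protein of immature neutrophils, fell from 45.6 and 233 CPM to 1.63 and 5.0 CPM (−4.92 ± 0.49, adjusted p = 0.00364, and 0.0858 with no block). The list had 1 call without TNF replicate 2 and with no block, 2 without day 0 replicate 2 and 3 without TNF replicate 1. S100a8 and Mmp8, further neutrophil genes, were not called (adjusted p = 0.766 and 0.425). The 8 stromal and endothelial markers, 7 of them tested, summed to 120 and 13.1 CPM at day 0 and 143 and 35.0 CPM after TNF. Of the 7 tested, 0 were called by limma (1 at an unadjusted p under 0.05), 0 by edgeR and 4 by DESeq2. Replicate 1 was the higher at both times. The 7 erythroid and megakaryocyte markers, 3 of them tested, summed to 276 and 371 CPM at day 0 and to 166 and 92.5 CPM after TNF. The 3 tested had a median of −1.32. All 3 had an unadjusted p under 0.05, and limma called 0, edgeR 0 and DESeq2 1 of them. In the wild-type libraries alone limma called 3 lower. T and NK cell markers summed to at most 8.31 CPM in any wild-type library, B cell markers to 7.42 CPM, mast cell markers to 4.41 CPM and dendritic cell markers to 10.9 CPM. Limma called 0 of the 14 tested, with 1 at an unadjusted p under 0.05, edgeR called 1 and DESeq2 called 2. The part of these cells in the results above was not tested.

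**Figure D4:**
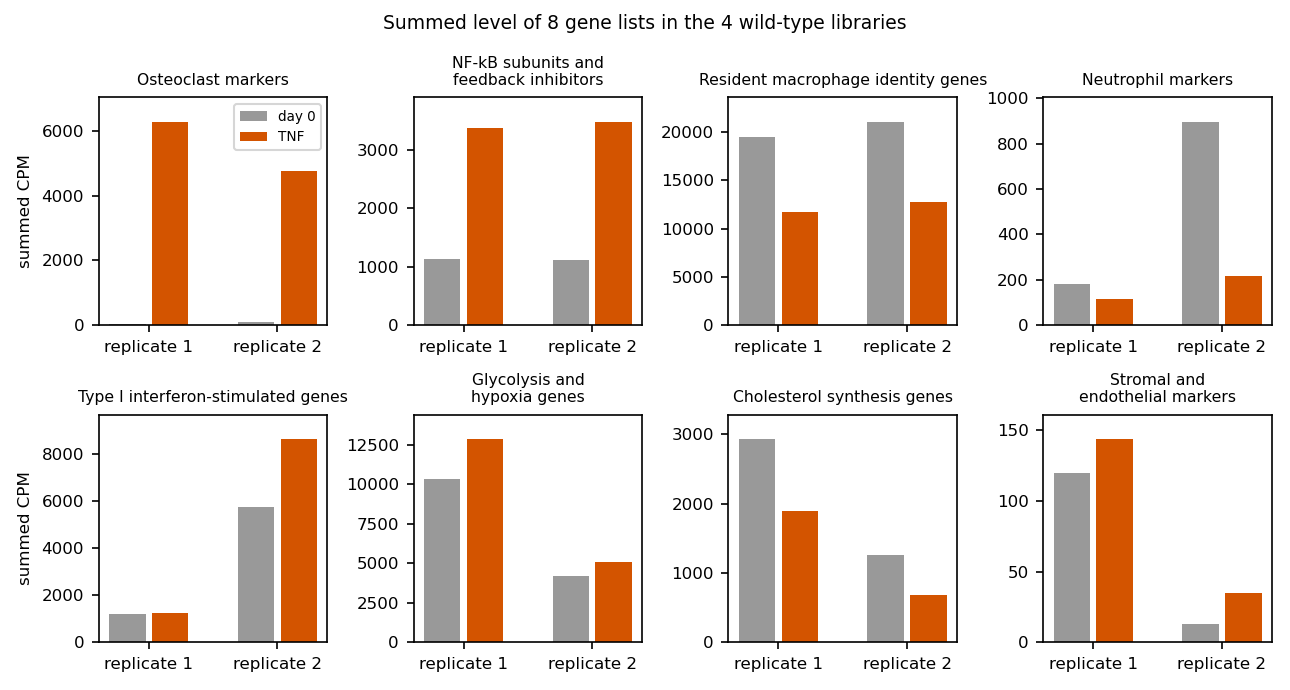
Summed CPM of all members with deposited values, tested or not, of 8 gene lists in the 4 wild-type libraries. Bars start from 0, grey for day 0 and orange for TNF, by replicate. Osteoclast and NF-kB genes are higher and resident macrophage genes lower after TNF in both replicates, whereas interferon-stimulated, glycolysis and stromal genes differ more between replicates than with TNF.

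The knockout libraries give the same genes beside the wild type. Rbpj was at 215 and 216 CPM at day 0 and at 226 and 178 CPM after TNF in wild type (−0.11 ± 0.17, adjusted p = 0.719, and a difference of 0.02 with median-ratio scaling), and at 38.9 and 31.8 CPM and then 30.0 and 21.4 CPM in the knockout. A test of the difference between the 2 TNF responses called 0 of 12194 genes with limma (0%), where 2192 had an unadjusted p under 0.05 and the lowest adjusted p was 0.0537. It called 0 with edgeR (2202 at an unadjusted p under 0.05), 986 with DESeq2, and 358 with limma when knockout TNF replicate 1, the shallowest library, was left out. Mrc1 fell by 3.74 in wild type and by 3.60 in the knockout, and Nfkbia rose by 2.66 and 2.64. Dcstamp rose by 4.62 in wild type and by 7.53 in the knockout, a difference of 2.92 ± 0.29 (adjusted p = 0.0593). Ctsk rose by 5.29 and 9.87, a difference of 4.58 ± 0.66 (adjusted p = 0.104). Saa3 rose by 8.75 and 4.75, a difference of −4.00 ± 0.97 (adjusted p = 0.135).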

How the data were processed

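Polyadenylated RNA was sequenced from 8 libraries, per the labels' protocols. The authors deposited 1 table of CPM per gene, made with fastp, HISAT2, HTSeq and edgeR on mm10, per the submitters' processing notes, with versions not given in the sources used here. All deposited CPM values were whole multiples of 1 read within 0.01, which gave the depth. Genes with at least 1 CPM in 2 of 8 libraries were tested on log2(CPM + 0.5) with limma 3.58.1 in R 4.3.3, with group, replicate and a trended variance (2-sided, 3 residual degrees of freedom), and Benjamini-Hochberg adjustment over 12194 genes. Replicate numbers were blocked because the comparison pairs libraries by number and the series speaks of 2 independent experiments. In the same data, differences between replicates 2 and 1 correlated from 0.577 to 0.805 over 6 pairs of groups. The labels do not say what a number marks. edgeR 4.0.16 and DESeq2 1.42.0 on the recovered reads, other scalings, filters and pseudocounts, and leaving out each library were alternatives. The script was tested on simulated data. Members and the 44 gene lists were chosen with earlier results of these data known. Genes were named by rule: the 12 largest changes each way and the 8 largest CPM shifts each way. From each list came up to 5 higher, 5 lower and 3 uncalled members. Genes with replicates far apart or a printed promoter were added. Others were fixed by name whatever their values, among them Rbpj, Tnf, Tnfrsf11a, Nfatc1, Irf8, Il1b, Il10, Nos2 and Arg1. Positions are GENCODE M21 on GRCm38, matched for 23350 of 24421 symbols; 27 symbols had turned into dates. Limits from read counts cover counting error only. Mitochondrial genes were not analysed here, and 64 list members were not tested.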

Additional observations from a re-analysis of the deposited data

Results flagged for a closer look

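For 3 genes both wild-type replicates moved up after TNF while both knockout replicates moved down. Blvrb, a biliverdin reductase, differed by 0.82 in wild type (0.65 and 0.99 by replicate) and by −0.32 in the knockout (−0.13 and −0.51). Ebi3, a subunit of IL-27 and IL-35, differed by 1.25 in wild type (1.06 and 1.44) and by −0.77 in the knockout (−0.50 and −1.04). Nfe2l2, which encodes NRF2, differed by 1.21 in wild type (0.75 and 1.66) and by −0.10 in the knockout (−0.08 and −0.13). The difference between genotypes was tested with limma and did not pass for Blvrb (−1.14, adjusted p = 0.118), Ebi3 (−2.02, adjusted p = 0.104) or Nfe2l2 (−1.31, adjusted p = 0.14). The wild-type calls of these genes depended on the fit. That of Blvrb ended with no block (0.568), with no filter (0.0533), without day 0 replicate 1 (0.072), without day 0 replicate 2 (0.21), without TNF replicate 1 (0.0669), without TNF replicate 2 (0.226), without knockout day 0 replicate 1 (0.0645) and without knockout day 0 replicate 2 (0.0656). That of Ebi3 ended with no block (0.197), with no filter (0.0506), without day 0 replicate 2 (0.176), without TNF replicate 1 (0.109) and without TNF replicate 2 (0.16). That of Nfe2l2 ended with no block (0.449), with no filter (0.0579), without day 0 replicate 2 (0.203), without TNF replicate 2 (0.147), without knockout day 0 replicate 1 (0.0565) and without knockout day 0 replicate 2 (0.0563).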

How the results depend on the processing

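The counts depended on the pairing of libraries by replicate number and on the tool: with no replicate block 99 genes rose and 45 fell, against 676 and 574 with it, and 131 of the 182 named called genes lost their call. With no filter on low values 314 fell, and with DESeq2 1385 rose and 1160 fell. Of the 44 gene lists, 41 had more calls with DESeq2 and 32 had more in the wild-type libraries alone. Leaving out 1 library gave from 169 to 724 genes higher and from 67 to 653 lower, and from 0 to 358 genes with a genotype difference. That difference was called in 0 genes in the main fit, in 1 with a pseudocount of 1, in 8 with quantile scaling and in 986 with DESeq2. Median-ratio scaling moved the share of calls that were higher from 54.1% to 60.9%. None of the 182 named called genes changed direction in any fit, and 62 of them kept their call in all 8 fits without 1 library. With 2 libraries per group, and 11 or fewer reads in some genes at day 0, the size of such changes is poorly known.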

Other observations

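Some called genes had replicates far apart. Dab2, an endocytic adaptor, stood at 1494 and 3029 CPM at day 0 and at 401 and 51.9 CPM after TNF (−3.87 ± 0.93, adjusted p = 0.0496, limma). Cd38, an NAD-consuming enzyme, had 10.3 and 0.890 CPM and then 84.0 and 175 CPM (4.97 ± 0.87, adjusted p = 0.0198). Slpi, a protease inhibitor, had 2.70 and 33.4 CPM and then 856 and 588 CPM (6.09 ± 1.19, adjusted p = 0.0276). In all 3 the groups did not overlap. The call of Dab2 ended with no block (0.215), with a pseudocount of 1 (0.0507), with no filter (0.091), with median-ratio scaling (0.0596), with edgeR (0.0763), without day 0 replicate 2 (0.256), without TNF replicate 1 (0.0617), without TNF replicate 2 (0.312), without knockout day 0 replicate 1 (0.0697) and without knockout day 0 replicate 2 (0.0693). That of Cd38 ended with no block (0.0753), with edgeR (0.058), without day 0 replicate 2 (0.0627) and without TNF replicate 2 (0.147). That of Slpi ended with no block (0.0867), with no filter (0.056), with edgeR (0.0643), without day 0 replicate 1 (0.0691), without TNF replicate 1 (0.128) and without TNF replicate 2 (0.128).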
